A study of Mus musculus with 20 samples.

Results

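The 10 enzymes described here act at some of the steps between the first phosphorylation of glucose and lactate: Hk1, Hk2, Gpi1, Pfkm, Aldoa, Pgam1, Pgam2, Pkm, Ldha and Ldhb. They were named by gene symbol, and every probe set that the array annotation gives to one of these symbols alone was used. That left 17 of the 45101 probe sets on the array, for 9 of the 10 genes: 5 for Aldoa, 4 for Ldhb, 2 for Hk1 and 1 each for Hk2, Pfkm, Pgam1, Pgam2, Pkm and Ldha. All 17 lay above the filter on dim probe sets. Gpi1, the isomerase between the hexokinase and phosphofructokinase steps, was not analysed here.

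The left ventricles of 20 male C57BL/6J mice were measured on Affymetrix arrays that cover the mouse genome, 1 for each mouse, in 5 groups of 4. The mice reached the laboratory at 6 weeks of age, had 2 weeks to settle, and then ate standard chow for 4 weeks with pitavastatin calcium at 4.5 mg/kg/day, pravastatin sodium at 21.0 mg/kg/day, rosuvastatin calcium at 10.9 mg/kg/day or atorvastatin calcium hydrate at 11.4 mg/kg/day, or, in the control group, with no drug. The statins, drugs that block the rate-limiting enzyme of cholesterol synthesis, came as powdered tablets in the food, so a dose is one worked out from average food intake. The doses differed among the drugs, so values of different statins are given side by side and no pair of statins was tested.

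Glycolysis splits glucose into pyruvate in the cytosol and yields some ATP without oxygen. The adult heart draws most of its energy from fatty acids and takes up lactate as a fuel, while its glycolytic flux rises with insulin, work load and lack of oxygen. Several steps have a form typical of muscle or heart and a form found in most cells. Hexokinase 2 is the insulin-responsive form and hexokinase 1 the widespread one, phosphoglycerate mutase 2 is the muscle form and mutase 1 the widespread one, and the B subunit of lactate dehydrogenase is typical of heart and of lactate use, where the A subunit favours lactate production.

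All levels are log2(signal + 16), with the signal in the linear units of the deposited values, and each gene is represented by its probe set with the highest mean signal. A level belongs to its probe set, so levels of different genes are not ranked here. The deposited arrays share a common trimmed mean signal of 500, but their median signal ran between 41.7 (rosuvastatin 3) and 144 (atorvastatin 2), and the signal at the 99th percentile between 11961 (atorvastatin 1) and 17236 (atorvastatin 4), with 16634 in rosuvastatin 2. Set against control in each statin group by a two-sided exact permutation test, the log2 of these measures gave p = 0.114 to 0.771 over 8 tests (0.456 to 0.771 after adjustment), where the smallest possible p is 0.0286. All 15 cardiomyocyte markers examined, such as Myh6 and Tnnt2, lay at or above the 99.1th percentile of all probe sets, and 8 of 10 skeletal muscle markers (Myh1, Myh2, Myh4, Mylpf, Tnnt3, Tnnc2, Actn3 and Pvalb) lay below the filter. Control 1 had the lowest level of the 4 control mice for each of the 9 genes, and atorvastatin 4 had the highest level of its group for 8 of them, Hk1 being the exception. Precision is limited by the number of arrays, and the 95% interval of a statin difference had a median reach of 0.36 on each side (log2) over all probe sets.

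No glycolytic probe set passed the test against control in any statin group. By limma with Benjamini-Hochberg adjustment over the 22518 probe sets tested, 0 of the 17 were called at an adjusted p under 0.05 with pitavastatin, pravastatin, rosuvastatin, atorvastatin or the mean of the 4 statins, and the background was 0% in each of these comparisons. The F test over the 5 groups, which also takes in differences among the statins at their unequal doses, called 0 of the 17, against 0.00444% of all probe sets (1 probe set). At an unadjusted p under 0.05 the members numbered 0 of 17 with pitavastatin (background 1.93%), 0 with pravastatin (3.93%), 2 with rosuvastatin (11%), 2 with atorvastatin (4.57%), 1 for the mean of the statins (3.05%) and 3 in the F test (6.24%). They were Pgam1 and a dim Aldoa probe set with rosuvastatin, Pkm and the same Aldoa probe set with atorvastatin, that probe set again for the mean, and Pgam1, Pkm and Ldha in the F test.

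**Figure D1:**
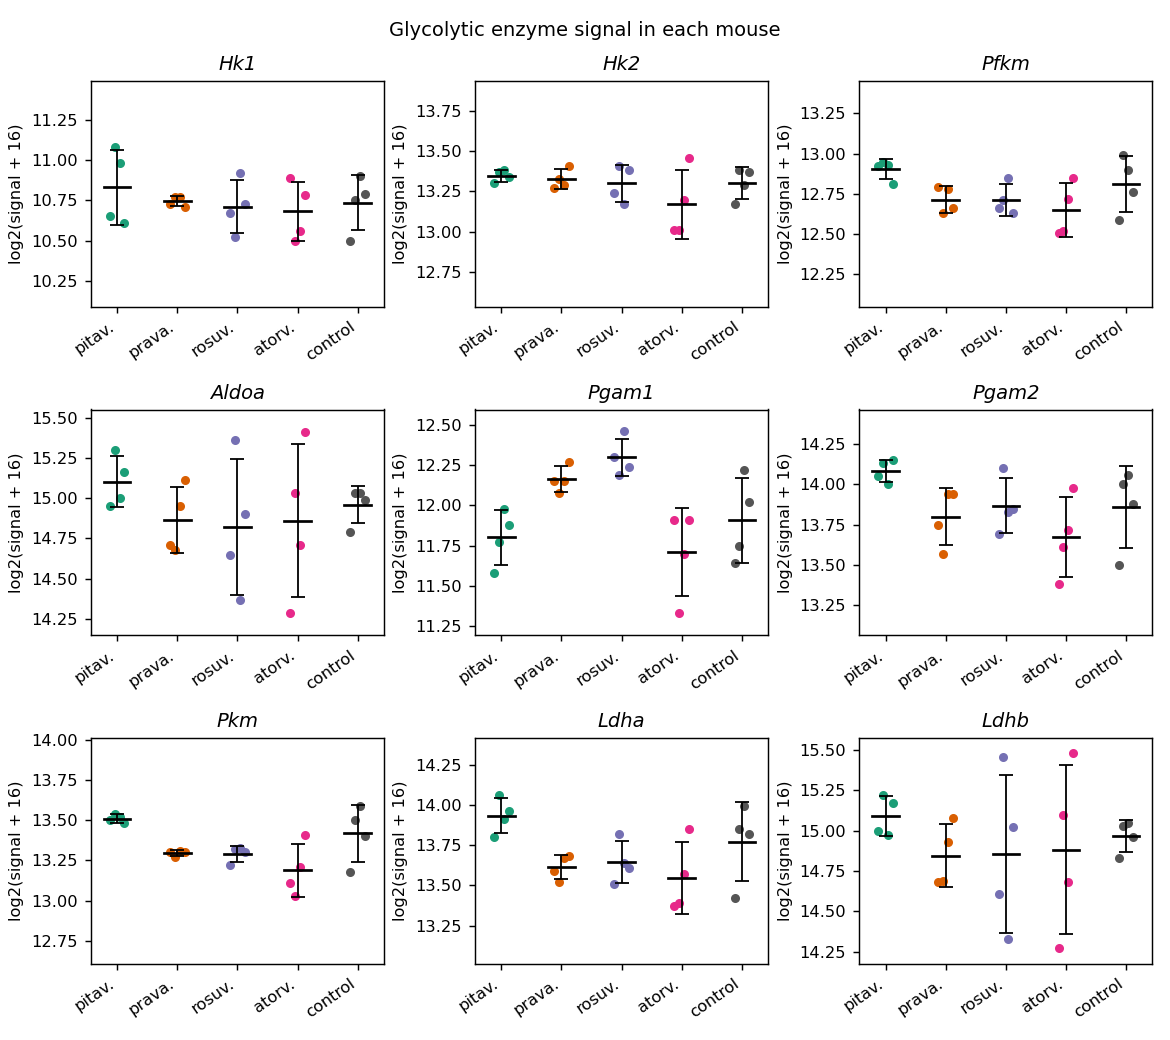
Signal of the 9 glycolytic enzymes in each mouse, 1 panel for each gene and its brightest probe set. The vertical axes give log2(signal + 16) and differ in position between panels, points are single mice, and the bar and whiskers are the mean and SD of the 4 mice of a group. Pkm lay between 13.48 and 13.54 in pitavastatin mice and between 13.27 and 13.31 in pravastatin mice, while Aldoa and Ldhb were spread widest in rosuvastatin and atorvastatin mice.

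The hexokinases, which trap glucose in the cell as glucose 6-phosphate, averaged within 0.14 of control in every group by their brightest probe sets. Hk2 was at 13.30, 13.37, 13.38 and 13.34 in pitavastatin mice, at 13.27, 13.33, 13.29 and 13.41 in pravastatin mice, at 13.24, 13.41, 13.17 and 13.38 in rosuvastatin mice and at 13.01, 13.01, 13.20 and 13.46 in atorvastatin mice, against 13.17, 13.38, 13.29 and 13.37 in control mice. Atorvastatin 1 and 2 lay below every control mouse and atorvastatin 4 above every one, so the groups overlap. The log2 difference of Hk2 from control was 0.04 with pitavastatin, 0.02 with pravastatin, -0.14 with atorvastatin (95% interval -0.33 to 0.06, adjusted p = 0.964) and within -0.20 to 0.19 with rosuvastatin. Hk1 averaged 10.83 ± 0.24 in pitavastatin mice, 10.74 ± 0.03 in pravastatin mice, 10.71 ± 0.17 in rosuvastatin mice and 10.68 ± 0.18 in mice on atorvastatin, against 10.73 ± 0.17 in control mice (SD, n = 4 each). Its differences ran between -0.05 and 0.10, and none of the 4 intervals reached beyond 0.34 in size. The 4 pravastatin mice lay closer together for Hk1 than any other group, at 10.71 to 10.77. A second, dim Hk1 probe set averaged 7.62 ± 0.29 in pitavastatin mice, 7.23 ± 0.25 in pravastatin mice, 7.30 ± 0.22 in rosuvastatin mice and 7.33 ± 0.31 in mice on atorvastatin, against 7.39 ± 0.17 in control mice. Its difference from control was 0.23 with pitavastatin (95% interval -0.17 to 0.64), where the brighter probe set stood at 0.10. It stood below control with pravastatin (-0.16) where the brighter probe set stood at 0.01, and neither passed.

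Pfkm encodes the muscle subunit of phosphofructokinase, the step that commits sugar to glycolysis. Its level was 12.92, 12.95, 12.93 and 12.81 in pitavastatin mice, 12.79, 12.63, 12.78 and 12.66 in pravastatin mice, 12.66, 12.71, 12.85 and 12.63 in rosuvastatin mice and 12.51, 12.52, 12.72 and 12.85 in atorvastatin mice, against 12.59, 12.99, 12.90 and 12.76 in control mice. Each statin group overlaps the wide control range, and control 1 is the low end of that range. The differences from control were 0.09 with pitavastatin, -0.10 with pravastatin and -0.10 with rosuvastatin, and -0.16 with atorvastatin, each with an SE of 0.09. The F test over the groups gave an adjusted p of 0.787 in limma.

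Aldolase A, from Aldoa, cleaves fructose 1,6-bisphosphate into triose phosphates and is the aldolase of muscle. The 5 Aldoa probe sets fell into 4 bright ones and 1 dim one. The differences of the dim one from control were of another size and, with pitavastatin, of the other sign. The brightest averaged 15.10 ± 0.16 in pitavastatin mice, 14.86 ± 0.20 in pravastatin mice, 14.82 ± 0.42 in rosuvastatin mice and 14.86 ± 0.47 in mice on atorvastatin, against 14.96 ± 0.12 in control mice (SD, n = 4 each). Single rosuvastatin mice were at 14.65, 15.36, 14.37 and 14.90 and single atorvastatin mice at 14.29, 15.03, 14.71 and 15.41, so that both groups reach below and above all 4 control mice (14.79, 15.03, 15.03 and 14.99). The 4 bright Aldoa probe sets differed from control by 0.08 to 0.14 with pitavastatin, -0.16 to -0.10 with pravastatin and -0.15 to -0.09 with rosuvastatin, and -0.16 to -0.10 with atorvastatin. The dim one differed by -0.20 with pitavastatin, -0.35 with pravastatin and -0.40 with rosuvastatin, and -0.41 with atorvastatin, with adjusted p of 1, 0.992, 0.452 and 0.964 in limma.

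In single mice the dim Aldoa probe set was at 10.37, 10.53, 10.53 and 10.23 with pravastatin and at 10.42, 10.43, 10.23 and 10.35 with rosuvastatin, against 10.59, 10.80, 10.79 and 10.87 in control mice. All 4 mice of each of these groups lay below all 4 control mice, and no other member probe set was apart from control in any statin group. Groups lay apart in the lower direction for 1.03% of all probe sets with pravastatin and 2.66% with rosuvastatin, and 1 of 17 members did so in each. In the higher direction the backgrounds were 1.92% and 1.87%, with 0 members. With pitavastatin (0.924% higher, 0.764% lower) and atorvastatin (0.799% higher, 0.573% lower) no member was apart. Pravastatin and rosuvastatin were set against the same 4 control mice, so these are not separate observations of the control side.

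Phosphoglycerate mutase moves the phosphate of 3-phosphoglycerate to the next carbon, and Pgam2 minus Pgam1 within the array stood further from control than Hk2 minus Hk1 or Ldhb minus Ldha did with pitavastatin, pravastatin and rosuvastatin, though not with atorvastatin. The regions around their starts are shown because this pair alone, of the 3 compared, lay apart from control in a statin group, pravastatin. Single probe sets lay apart with pravastatin in 1.03% of cases in the lower direction and 1.92% in the higher. How often other pairs of probe sets do so was not counted, so the separation is not read as a result about the mutases. The sequences are those of RefSeq (GRCm38.p6), 250 bases before to 50 after the annotated start, for Pgam2 at chr11:5803747-5804046, minus strand, and for Pgam1 at chr19:41911621-41911920, plus strand. The capitals mark CTATTTTTA, an A/T-rich motif of the kind bound by the muscle factor MEF2, and ACGTG, the core of the sites of hypoxia-inducible factor and part of the E-box CACGTG; both were looked for on either strand and were picked after the sequences had been seen.
Pgam2: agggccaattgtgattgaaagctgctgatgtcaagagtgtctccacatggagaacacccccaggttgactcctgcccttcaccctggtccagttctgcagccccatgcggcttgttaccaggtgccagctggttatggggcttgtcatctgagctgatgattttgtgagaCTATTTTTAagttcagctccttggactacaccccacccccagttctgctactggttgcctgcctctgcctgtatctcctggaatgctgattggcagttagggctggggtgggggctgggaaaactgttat
Pgam1: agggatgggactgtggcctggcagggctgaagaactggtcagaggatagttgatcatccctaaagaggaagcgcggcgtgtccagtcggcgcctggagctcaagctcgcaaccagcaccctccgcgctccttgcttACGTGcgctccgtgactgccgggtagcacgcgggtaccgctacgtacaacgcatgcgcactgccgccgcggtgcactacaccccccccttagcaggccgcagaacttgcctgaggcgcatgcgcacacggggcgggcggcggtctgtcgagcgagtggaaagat
Of 32851 such windows of 300 bases in the RefSeq table, 0.493% hold CTATTTTTA and 19.6% hold ACGTG. Among the 18 windows of the 10 enzymes, the first stands in 1, that of Pgam2, and the second in 9, from 7 genes. A match describes letters in the window and is not evidence of a bound site.

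Pgam1, the widespread mutase, was the member with the smallest p. Its level was 11.58, 11.77, 11.98 and 11.88 in pitavastatin mice, 12.15, 12.08, 12.15 and 12.27 in pravastatin mice, 12.30, 12.19, 12.46 and 12.24 in rosuvastatin mice and 11.91, 11.33, 11.70 and 11.91 in atorvastatin mice, against 11.64, 11.75, 12.22 and 12.02 in control mice. All rosuvastatin mice lay above 3 of the 4 control mice, control 3 lay among them, and pravastatin mice were also above those 3 control mice. The log2 difference from control was 0.39 with rosuvastatin (95% interval 0.12 to 0.67, adjusted p = 0.452 in limma), a fold of 1.31. It was 0.26 with pravastatin (-0.02 to 0.53, adjusted p = 0.992), -0.10 with pitavastatin and -0.19 with atorvastatin. The group means lay furthest apart between rosuvastatin and atorvastatin, and the F test over the 5 groups gave Pgam1 an adjusted p of 0.361, and an adjusted p of 0.0485 with array weights, which give variable arrays less influence. With array weights the F test called 185 of the 22518 probe sets tested, and 1 of the 17 member probe sets. No other setting called Pgam1, and its highest adjusted p in the F test was 0.679. The rosuvastatin difference lay between 0.27 and 0.50 over the settings tried, with adjusted p between 0.272 and 0.932.

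Pgam2, the muscle mutase, was at 14.05, 14.13, 14.00 and 14.15 in pitavastatin mice, 13.75, 13.57, 13.94 and 13.94 in pravastatin mice, 13.69, 14.10, 13.83 and 13.85 in rosuvastatin mice and 13.38, 13.61, 13.72 and 13.98 in atorvastatin mice, against 13.50, 14.00, 14.06 and 13.88 in control mice. Pitavastatin mice sat at or above the upper part of the control range, and the other groups spread across it. The differences from control were 0.22 (95% interval -0.06 to 0.50), -0.06, 0.01 and -0.19 in the order pitavastatin, pravastatin, rosuvastatin, atorvastatin. The F test gave an adjusted p of 0.787. Without control 1, the lowest control mouse, they were 0.10, -0.18, -0.11 and -0.31, so the rosuvastatin value changed sign.

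Within each array the Pgam2 level minus the Pgam1 level was 2.47, 2.36, 2.02 and 2.27 in pitavastatin mice, 1.60, 1.49, 1.79 and 1.67 in pravastatin mice, 1.39, 1.90, 1.37 and 1.61 in rosuvastatin mice and 1.47, 2.29, 2.01 and 2.07 in atorvastatin mice, against 1.87, 2.25, 1.84 and 1.87 in control mice. The size of such a difference depends on the probes and is no ratio of RNA amounts, so only its variation between mice is read. All pravastatin mice lay below all control mice, by a gap of 1.79 to 1.84 at the closest, 3 of the 4 rosuvastatin mice did so, and 3 of the 4 pitavastatin mice lay above all control mice. The group means differed from control by 0.32 with pitavastatin, -0.32 with pravastatin and -0.39 with rosuvastatin, and 0.00 with atorvastatin, where the SDs of the groups were 0.19, 0.12, 0.25 and 0.35, against 0.20 in control mice. Leaving out single mice of either group kept the first between 0.26 and 0.42, the second between -0.37 and -0.22 and the third between -0.50 and -0.29. These differences carry no test, because the pairs were chosen with results of these mice known. The share of other probe-set pairs that separate a statin group from control was not computed. They were not computed again after quantile normalization or with the 99th percentile of the array as a covariate. Subtraction within an array need not remove effects of its range. With that covariate the residual SD within groups was 0.15 for Pgam2, against 0.19 without it, and 0.20 in both for Pgam1.

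**Figure D2:**
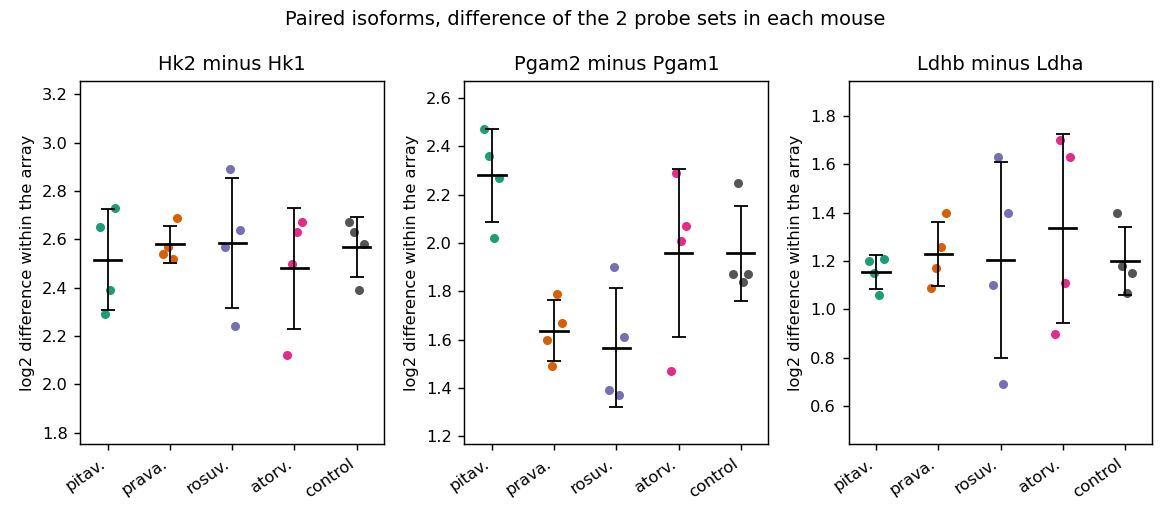
Level of 1 isoform minus the level of its partner in the same array, for hexokinase, phosphoglycerate mutase and lactate dehydrogenase. The vertical axes are log2 differences of log2(signal + 16), points are single mice, and bars and whiskers are the mean and SD of 4 mice. For the mutases the pravastatin mice (1.49 to 1.79) lie below the control mice (1.84 to 2.25), and for the other pairs every statin group overlaps control.

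Pyruvate kinase, from Pkm, makes the last ATP of glycolysis and is expressed as 2 splice forms, which were not told apart here. Its level was 13.50, 13.54, 13.52 and 13.48 in pitavastatin mice, 13.30, 13.27, 13.31 and 13.30 in pravastatin mice, 13.22, 13.32, 13.33 and 13.30 in rosuvastatin mice and 13.11, 13.03, 13.21 and 13.41 in atorvastatin mice, against 13.18, 13.50, 13.59 and 13.40 in control mice. Pitavastatin and pravastatin mice varied little, with SDs of 0.03 and 0.02, and control mice, with an SD of 0.18, covered the range of both. The difference from control was -0.23 with atorvastatin (95% interval -0.41 to -0.05, adjusted p = 0.964 in limma), -0.12 with pravastatin and -0.13 with rosuvastatin, and 0.09 with pitavastatin, which was 0.01 without control 1. Over the settings tried, the atorvastatin value lay between -0.31 and -0.17 with adjusted p between 0.159 and 1. The lowest adjusted p came without control 1. The F test over the 5 groups gave an adjusted p of 0.632.

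Lactate dehydrogenase interconverts pyruvate and lactate as a tetramer of A and B subunits. The start regions of their genes are shown because the ACGTG core stands in one of them and not in the other: Ldhb at chr6:142507908-142508207, minus strand, and Ldha at chr7:46845554-46845853, plus strand, from the same RefSeq table. Capitals mark ACGTG on either strand, and the palindrome CACGTG holds it on both.
Ldhb: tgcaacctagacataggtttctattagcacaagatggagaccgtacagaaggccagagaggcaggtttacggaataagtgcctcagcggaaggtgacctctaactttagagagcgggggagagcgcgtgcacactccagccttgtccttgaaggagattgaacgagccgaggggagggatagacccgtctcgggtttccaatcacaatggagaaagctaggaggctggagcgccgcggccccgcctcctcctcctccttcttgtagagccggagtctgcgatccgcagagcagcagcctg
Ldha: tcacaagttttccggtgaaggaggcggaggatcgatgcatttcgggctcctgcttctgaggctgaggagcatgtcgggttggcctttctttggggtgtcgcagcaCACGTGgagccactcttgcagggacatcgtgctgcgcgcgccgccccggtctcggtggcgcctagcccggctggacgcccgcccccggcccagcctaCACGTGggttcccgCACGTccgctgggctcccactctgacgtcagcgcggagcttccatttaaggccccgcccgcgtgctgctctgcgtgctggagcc
The Ldha window has 5 matches, counted per strand, and the Ldhb window 0. A second Ldha window, at another annotated start, has 0.

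Ldha was at 13.80, 14.06, 13.91 and 13.96 in pitavastatin mice, 13.59, 13.52, 13.67 and 13.68 in pravastatin mice, 13.51, 13.82, 13.64 and 13.61 in rosuvastatin mice and 13.37, 13.39, 13.57 and 13.85 in atorvastatin mice, against 13.42, 13.85, 13.99 and 13.82 in control mice. Control 1 lay below all pravastatin and rosuvastatin mice and the other 3 control mice above all pravastatin mice. The differences were 0.16 with pitavastatin, -0.16 with pravastatin and -0.12 with rosuvastatin, and -0.22 with atorvastatin (95% interval -0.47 to 0.02, adjusted p = 0.964). Without control 1 they were 0.05, -0.27, -0.24 and -0.34, with the smallest adjusted p, 0.239, for atorvastatin. The adjusted p of the F test was 0.742 in limma.

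Ldhb, the heart subunit, had 4 probe sets, and the brightest was at 15.00, 15.22, 14.97 and 15.17 in pitavastatin mice, 14.68, 14.69, 14.93 and 15.08 in pravastatin mice, 14.61, 15.46, 14.33 and 15.02 in rosuvastatin mice and 14.27, 15.10, 14.68 and 15.48 in atorvastatin mice, against 14.83, 15.03, 15.05 and 14.96 in control mice. As for Aldoa, the mice of the rosuvastatin and atorvastatin groups lay on both sides of the whole control range. The 4 Ldhb probe sets differed from control by 0.10 to 0.20 with pitavastatin, -0.19 to -0.13 with pravastatin and -0.16 to -0.09 with rosuvastatin, and -0.15 to -0.09 with atorvastatin. Ldhb minus Ldha within the array averaged 1.16 ± 0.07 in pitavastatin mice, 1.23 ± 0.13 in pravastatin mice, 1.20 ± 0.41 in rosuvastatin mice and 1.34 ± 0.39 in mice on atorvastatin, against 1.20 ± 0.14 in control mice (SD, n = 4 each). Hk2 minus Hk1 averaged 2.52 ± 0.21, 2.58 ± 0.08, 2.59 ± 0.27 and 2.48 ± 0.25 in the same order of statins, against 2.57 ± 0.12 in control mice. Neither pair separated a statin group from control.

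Gene by gene, most members stood above control with pitavastatin and all below it with atorvastatin, by small amounts. With pitavastatin 8 of 9 genes had a positive difference and 1, Pgam1, a negative one, with a median of 0.095, where all tested probe sets had a median of -0.003 and 49% were positive. With pravastatin the split was 3 positive to 6 negative (median -0.10, all probe sets -0.022 and 45% positive), and with rosuvastatin 2 to 7 (median -0.10, all probe sets -0.02 and 45.9%). With atorvastatin all 9 were negative (median -0.161, all probe sets -0.028 and 43.9%), and no single one passed the test. The 4 comparisons share their control mice, so the signs are not independent across statins. The genes are not separate observations either. Correlations of deviations between members ran from -0.28 (Hk1 and Ldhb) to 0.99 (Aldoa and Ldhb), and control 1 was the lowest control mouse for all 9 genes. In these bulk samples fewer cells of a type and less RNA per cell cannot be told apart. Of the cardiomyocyte markers, 12 of 15 were positive with pitavastatin (median 0.119), and 0 of 15 with pravastatin (median -0.12), rosuvastatin (-0.179) and atorvastatin (-0.127), with 0 called in each. Their summed signal ran from 490000 to 564000 in pitavastatin mice, 395000 to 539000 in pravastatin mice, 305000 to 637000 in rosuvastatin mice and 298000 to 674000 in atorvastatin mice, against 443000 to 535000 in control mice. Other cell types are given in the order pitavastatin, pravastatin, rosuvastatin, atorvastatin, again with 0 called. Of 10 endothelial markers 9, 4, 5 and 6 were positive (medians 0.149, -0.043, 0.042 and 0.035). Of 10 fibroblast markers 3, 0, 7 and 0 were positive (medians -0.054, -0.125, 0.11 and -0.132). Of 10 macrophage markers 7, 4, 7 and 3 were positive (medians 0.048, -0.027, 0.094 and -0.098). The part of these markers in the glycolytic differences was not tested. The cardiomyocyte markers lay at or above the 99.1th percentile of all probe sets, at the bright end of the arrays. Their values are not given here after quantile normalization or with the 99th percentile as a covariate.

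The direction of several members rested on control 1 or on the scaling of the arrays. Without control 1 the medians were 0.018 with pitavastatin, -0.173 with pravastatin and -0.166 with rosuvastatin, and -0.234 with atorvastatin. After quantile normalization, which gives every array the same range, the split was 8 positive to 1 negative with pitavastatin, 5 to 4 with pravastatin and 5 to 4 with rosuvastatin, and 2 to 7 with atorvastatin. With the 99th percentile of the array as a covariate the splits were the same. Aldoa and Ldhb changed sign in both settings with pravastatin, rosuvastatin and atorvastatin, to values between 0.005 and 0.059. Pgam1 with rosuvastatin was at 0.36 after quantile normalization and at 0.38 with the covariate, and Pkm with atorvastatin at -0.18 and -0.21.

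**Figure D3:**
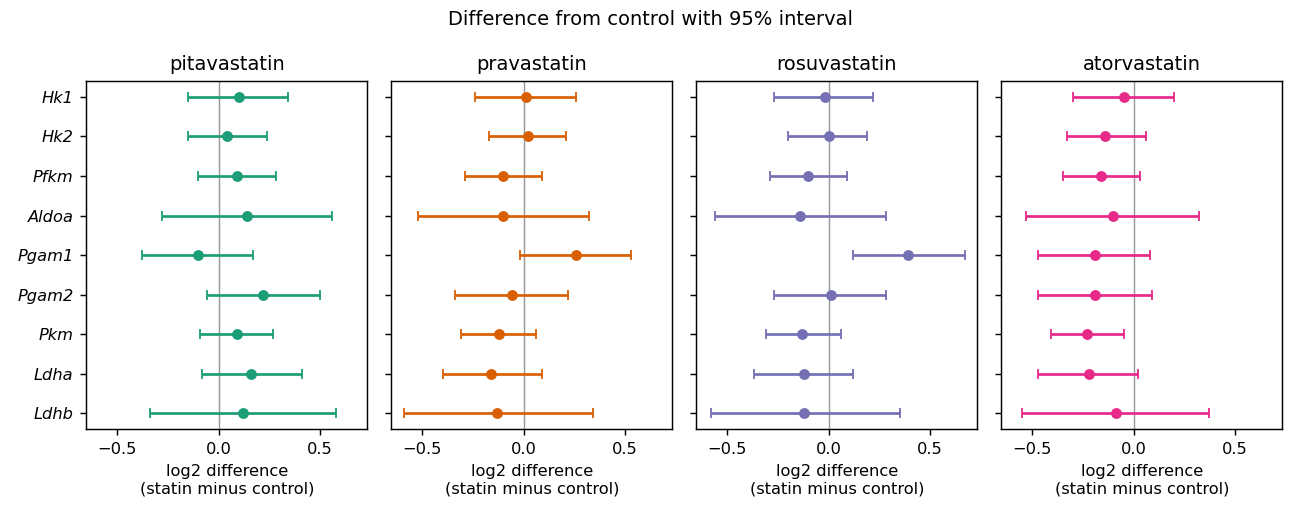
Log2 difference of each glycolytic enzyme from control in the 4 statin groups, with its 95% interval from limma. The horizontal axes are statin minus control of log2(signal + 16), and the grey line is 0. The intervals of Pgam1 with rosuvastatin (0.12 to 0.67) and Pkm with atorvastatin (-0.41 to -0.05) leave out 0, and neither passed adjustment over all probe sets.

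The spread of Ldhb and Aldoa between mice followed the bright end of each array. Atorvastatin 4 and rosuvastatin 2, the arrays with the highest 99th percentile, had the highest levels of both genes, and atorvastatin 1 and rosuvastatin 3, with the lowest, had the lowest. The residual SD within groups was 0.34 for Ldhb and 0.31 for Aldoa, against a median of 0.24 over all tested probe sets. With the log2 99th percentile as a covariate it was 0.06 for Ldhb and 0.08 for Aldoa, and after quantile normalization 0.07 and 0.08. Both genes are themselves among the brightest probe sets of the heart, at the 99.9th percentile, so the covariate is not independent of them. For Pgam1 the residual SD was 0.20 with and without the covariate, and for Pkm it was 0.11 in both.

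**Figure D4:**
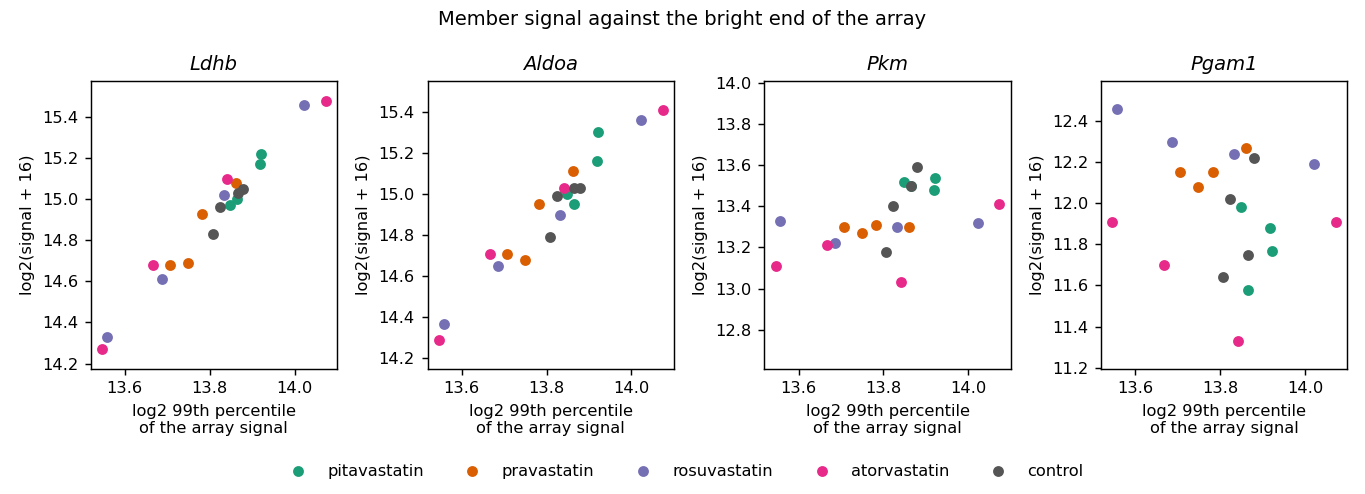
Level of Ldhb, Aldoa, Pkm and Pgam1 in each mouse against the signal at the 99th percentile of its array. Horizontal axes are log2 of that signal, vertical axes are log2(signal + 16), and each point is 1 mouse in the colour of its group. Ldhb runs between 14.27 and 15.48 along the axis in a narrow band, and Pgam1 shows no such band.

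The genes most like each member were taken as the 3 with the highest correlation of deviations from the group mean over 20 arrays, a description of arrays that share scaling and dynamic range. For Ldhb they were Tnnt2, cardiac troponin T, at 0.996, and the complex I genes Ndufv3 at 0.995 and Ndufs7 at 0.994. For Aldoa they were Oxct1, which starts ketone body use, at 0.994, Hadhb, of fatty acid oxidation, at 0.993, and Ndufv3 at 0.991. For Pgam2 they were Etfb, Acot13 and Slc25a5, at 0.984, 0.975 and 0.972, and for Ldha Timm23, Ndufb9 and Ndufa8, at 0.957, 0.951 and 0.948. Pgam1 was closest to Cmc2 (0.915), Ccnd1 (0.903) and Ttc19 (0.878), and Pkm to Pop5 (0.946), Grpel1 (0.941) and Tecr (0.937). Pfkm was closest to Txn2, Eif3i and Eif3h (0.927, 0.921 and 0.919), Hk2 to Rps18, Clic4 and Mfn2 (0.928, 0.892 and 0.881) and Hk1 to Ssbp2, Qrsl1 and Caprin1 (0.866, 0.845 and 0.84). Between members, the same measure was 0.99 for Aldoa and Ldhb, 0.92 for Pgam2 and Ldha and 0.90 for Pkm and Ldha. For Pgam1 it was 0.68 with Hk1, 0.61 with Pkm and 0.52 with Ldha, 0.29 with Pgam2 and -0.15 with Ldhb.

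The rest of the pathway was read from 53 listed genes of glycolysis, its control, pyruvate use, glucose entry and glycogen, of which 38 were tested. None of the 38 was called by limma with any statin or with their mean, in each of which 0% of all probe sets were called. At an unadjusted p under 0.05 there were 1 with pitavastatin, 3 with pravastatin and 4 with rosuvastatin, and 4 with atorvastatin, against the backgrounds of 1.93%, 3.93%, 11% and 4.57%. The other 6 tested glycolytic enzymes (Pfkl, Pfkp, Tpi1, Pgk1, Eno3 and Ldhc) were positive in 5 of 6 with pitavastatin, 0 of 6 with pravastatin, 0 of 6 with rosuvastatin and 1 of 6 with atorvastatin. Eno3, the muscle enolase, had differences of 0.16, -0.12, -0.14 and -0.15 in that order, and Tpi1, triose phosphate isomerase, 0.12, -0.13, -0.10 and -0.09. The 5 tested genes listed as control of glycolysis act in opposing ways. Pfkfb3 makes fructose 2,6-bisphosphate and Tigar lowers it, so the signs are not read as one direction. For the statins in that order, 2, 5, 3 and 5 of these 5 genes were positive (medians -0.047, 0.269, 0.316 and 0.105). Pfkp, the platelet-type phosphofructokinase subunit, differed by -0.29 with pravastatin (10.47 ± 0.18, against 10.76 ± 0.15 in control mice, adjusted p = 0.992) and by -0.26 with atorvastatin (10.51 ± 0.16, adjusted p = 0.964).

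Phka1, the muscle alpha subunit of the kinase that switches on glycogen phosphorylase, was the one gene of these lists below control at an unadjusted p under 0.05 with every statin. Its level was 9.37, 9.48, 9.39 and 9.24 in pitavastatin mice, 9.51, 9.35, 9.25 and 9.26 in pravastatin mice, 9.39, 9.45, 9.51 and 9.12 in rosuvastatin mice and 9.50, 8.91, 9.34 and 9.34 in atorvastatin mice, against 9.51, 9.70, 9.66 and 9.64 in control mice. Control 1 was level with the highest pravastatin and rosuvastatin mice, and the other 3 control mice lay above all 16 statin mice. The differences were -0.26, -0.29, -0.26 and -0.36 in that order, with adjusted p of 1, 0.992, 0.452 and 0.964, and -0.29 for the mean of the statins (95% interval -0.48 to -0.10, adjusted p = 0.999 in limma). The 4 values share the control mice. The share of all tested probe sets that lie on one side of control at this p with every statin was not counted. The pattern is therefore not read as a result about Phka1.

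Among genes that control glycolysis, Tigar, a phosphatase that lowers fructose 2,6-bisphosphate, differed by 0.30 with pravastatin (12.05 ± 0.13, against 11.75 ± 0.09 in control mice) and by 0.33 with rosuvastatin (12.07 ± 0.25), with adjusted p of 0.992 and 0.452. With pitavastatin and atorvastatin it was at -0.09 and 0.02. Adpgk, an ADP-dependent glucokinase, differed by 0.99 with rosuvastatin (95% interval 0.08 to 1.90, adjusted p = 0.452), and its single control mice ran from 7.73 to 9.51, within which 3 of the 4 rosuvastatin mice lay. Pfkfb3, which makes fructose 2,6-bisphosphate, was at 0.09, 0.30, 0.32 and 0.03 with pitavastatin, pravastatin, rosuvastatin and atorvastatin. Ugp2, which makes UDP-glucose for glycogen, differed by -0.18 with atorvastatin (13.40 ± 0.11, against 13.58 ± 0.09 in control mice, adjusted p = 0.964). With pitavastatin, Phkg1, a catalytic subunit of phosphorylase kinase, stood at -0.20 and Gys1, muscle glycogen synthase, at -0.17, both with an adjusted p of 1. Of the 14 tested genes of pyruvate use, 0 reached an unadjusted p under 0.05 with any statin, and their medians were 0.013, -0.055, -0.048 and -0.005 in the same order of statins.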

How the data were processed

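The deposited values are signal intensity, linear and 1 for each probe set, which the authors computed with MAS5 per the submitters' processing notes, with no version given, and handled in GeneSpring GX 11.0 per the labels' design text. A NuGEN Ovation kit amplified the cDNA from a 100 ng input, per the labels' protocols. Groups came from the sample titles. The 64 control probe sets of the array were dropped, 16 was added before log2, and the brighter 50% of 45037 probe sets by mean log2 were kept (signal of 81.8 or more), 22518 in all. Log2 fold changes on this scale understate changes of dim probe sets.

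Differences were fitted with limma 3.58.1 in R 4.3.3 on all 20 arrays, with a mean for each group and a prior variance that follows the mean level (degrees of freedom 15 residual, 4.23 prior). P-values were adjusted by Benjamini-Hochberg over all tested probe sets, and calls were made at 0.05. Tables and exact permutation tests were made in Python 3.11.15 with scipy 1.17.1 and pandas 2.3.3. On simulated data (pitavastatin against control, 22518 probe sets) the fit recovered 3% of true 1.25-fold changes, 33.6% of 1.5-fold ones, 71.2% of 2-fold ones and 89.6% of 3-fold ones. The simulated noise was normal and independent between probe sets. In the real arrays deviations were shared between genes, so these shares need not hold for them. The brightest probe set stood for each gene. From the lists of other pathway genes, those passing the threshold and the 3 with the smallest p in each statin comparison were named. Pfkl, Tpi1, Pgk1, Eno3, Ldhc and Pfkfb3 are also given, chosen once their values had been seen. The members and lists were chosen with earlier results of these data known.

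Alternatives were quantile normalization, centring on the array median, no filter, a filter at the brightest 30%, pseudocounts of 1 and 64, a prior without trend, array weights, a replicate block, the median signal as a covariate, and leaving out single arrays or the dimmest and brightest array. Chosen after seeing the data were a blocked fit of pitavastatin and control alone, the 99th percentile as a covariate and a fit without the arrays rosuvastatin 2 and atorvastatin 4. No pair of statins was tested, because the doses differ. The replicate numbers in the titles are not said to mark a shared litter or day, but all 4 same-numbered pairs of pitavastatin and control arrays deviated together (correlation 0.13 to 0.436), so this comparison was also fitted on its own with the number as a block. The number of arrays limits the precision.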

Additional observations from a re-analysis of the deposited data

Results flagged for a closer look

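For 2 genes every mouse of one statin group lay above the control mean and every mouse of another below it. Pkm was above it in all 4 pitavastatin mice and below it in all 4 pravastatin, 4 rosuvastatin and 4 atorvastatin mice. The differences between the group means were 0.22 on the log2 scale for pitavastatin minus pravastatin, 0.22 for pitavastatin minus rosuvastatin and 0.32 for pitavastatin minus atorvastatin. Ldha was above the control mean in all 4 pitavastatin mice and below it in all 4 pravastatin mice, and the group means differed by 0.32. Pfkm was a borderline case and is not counted. All 4 pravastatin mice lay below its control mean of 12.81, and pitavastatin 4 was level with that mean at 12.81. The other pitavastatin mice lay above it. In each case the difference was not tested, the doses differ, and the pairs share the control mean. Control 1 was the lowest control mouse for Pkm and Ldha, and without it neither pattern held. For each of these genes 3 of 4 pitavastatin mice then lay above the control mean and 1 below it. The pitavastatin difference from control was then 0.01 for Pkm and 0.05 for Ldha. Without control 1 a like pattern appeared for the mutases. Pgam1 was then above the control mean in all 4 pravastatin and 4 rosuvastatin mice. It was below that mean in all 4 pitavastatin and 4 atorvastatin mice. Pgam2 was above its control mean in all 4 pitavastatin mice and below it in all 4 pravastatin mice. Atorvastatin 4 was level with that mean at 13.98, and the other atorvastatin mice lay below it. Of the rosuvastatin mice 3 lay below it and 1 above. In 45 groups of 4 mice (9 genes in 5 groups), 0 had a mouse set apart from its group by Dixon's criterion at 95%, where chance flags about 1 in 20.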

How the results depend on the processing

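No glycolytic probe set was called in any statin comparison under any alternative, and the F test called 1 (Pgam1) with array weights. Over all probe sets, counts of calls moved as follows. With pravastatin, 0 calls became 5 with the brightest 30% of probe sets, 16 with array weights and 6 when the median signal was a covariate. With array weights there were 12 with rosuvastatin and 2 for the mean of the statins. The F test called 1 probe set, but 3 with the brightest 30%, 0 without the trend, 185 with array weights, 5 with the median signal as a covariate, 0 with the 99th percentile as a covariate, 2 without the dimmest and brightest arrays and 0 without rosuvastatin 2 and atorvastatin 4. Leaving out 1 array gave 0 to 23 calls with pravastatin, 0 to 17 with rosuvastatin, 0 to 18 with atorvastatin, 0 to 9 for the mean and 0 to 49 in the F test, each highest without control 1.

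Deviations of same-numbered arrays correlated at -0.541 to 0.694 over 40 pairs of arrays, 19 of them over 0.1. Every pair was over 0.1 for pitavastatin and control, where a fit of these groups alone with the replicate number as a block called 0 probe sets, and for no other statin and control. With the replicate block in the fit of all arrays the F test called 6 probe sets and the other comparisons 0, so the block changed no other call. In all, 7 of 20 arrays correlated best with an array of their own number.

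Small differences of single genes changed sign, and the cause was not tested. After quantile normalization Hk1 was at -0.018 with pravastatin and -0.022 for the mean of the statins, Aldoa at 0.033 with pravastatin, 0.042 with rosuvastatin, 0.005 with atorvastatin and 0.034 for the mean, Ldhb at 0.005, 0.046, 0.005 and 0.023 in that order, Pgam2 at 0.002 with pravastatin and 0.038 for the mean, and Hk2 at 0.021 with rosuvastatin. With the 99th percentile as a covariate Hk1 was at -0.012 with pravastatin and -0.004 for the mean, Aldoa at 0.048, 0.008, 0.031 and 0.033 with pravastatin, rosuvastatin, atorvastatin and the mean, Ldhb at 0.039, 0.047, 0.059 and 0.04, Pgam2 at 0.004 with pravastatin and 0.031 for the mean, and Hk2 at 0.04 with rosuvastatin and 0.007 for the mean. With the median signal as a covariate Hk1 was at -0.021 with pravastatin and -0.038 for the mean, Hk2 at 0.018 with rosuvastatin, Aldoa at 0.077 with rosuvastatin and 0.036 for the mean, Ldhb at 0.135 and 0.046, and Pgam2 at 0.004 for the mean. With array weights Hk1 was at -0.032 with pravastatin and -0.049 for the mean, and Pgam2 at -0.107 with rosuvastatin. With each array centred on its median Hk1 was at 0.025 and Hk2 at 0.044 with rosuvastatin, and Hk2 at 0.004 and Pgam2 at 0.016 for the mean. Without the dimmest and brightest arrays Hk2 was at 0.04, Aldoa at 0.009 and Ldhb at 0.058 with rosuvastatin, Hk1 at 0.011 with atorvastatin, and Hk2 at 0.006 and Pgam2 at 0.002 for the mean. Without rosuvastatin 2 and atorvastatin 4, Hk1 was at 0.041 and Pgam2 at -0.071 with rosuvastatin.

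Leaving out 1 array gave ranges that cross 0 for Pgam1 with pitavastatin (-0.193 to 0.001) and for the mean (-0.001 to 0.192), for Hk1 with pravastatin (-0.069 to 0.065), rosuvastatin (-0.102 to 0.041), atorvastatin (-0.129 to 0.011) and the mean (-0.071 to 0.064), for Hk2 with pravastatin (-0.022 to 0.047), rosuvastatin (-0.048 to 0.04) and the mean (-0.062 to 0.006), for Pgam2 with pravastatin (-0.181 to 0.013), rosuvastatin (-0.114 to 0.071) and the mean (-0.126 to 0.059), for Aldoa with rosuvastatin (-0.319 to 0.009) and atorvastatin (-0.284 to 0.088), and for Ldhb with rosuvastatin (-0.319 to 0.058) and atorvastatin (-0.288 to 0.114). Pseudocounts of 1 and 64 and no filter changed no sign of a member.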
